A study of Mus musculus with 18 samples.

Results

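The aggrecanase-type Adamts genes are 6 members of the family of secreted metalloproteinases with thrombospondin motifs, Adamts1, Adamts4, Adamts5, Adamts8, Adamts9 and Adamts15. They were taken by name, as the members known to cleave aggrecan or related proteoglycans. The members were chosen with earlier results of these data known. They are 6 of 49184 genes measured in mouse knee cartilage, and all 6 passed the filter on low counts in every fit. RNA was taken from the cartilage caps of the femoral condyles of male C57Bl/6J mice aged 12 weeks. The injured mice had received a single 12 N load to the flexed right knee under anaesthesia, which ruptured the anterior cruciate ligament (ACL) without surgery, and buprenorphine. Injured right knees and uninjured contralateral left knees of these mice were collected 1 or 7 days later, and naïve mice, labelled with the later time, had no load. There were 6 naïve libraries and 3 libraries each of day 1 contralateral, day 1 injured, day 7 contralateral and day 7 injured knees. Each library is a pool of knees. The series describes pools of 4 mice, whereas the study's scheme gives pools of 2 mice for naïve and day 1 libraries and of 4 mice at day 7. The scheme explains the larger pools by cartilage that was partly lost by that time. Left and right knees of the 6 naïve mice went into separate pools, so the 6 naïve libraries stand for as few as 3 pools of mice, each sampled on both sides, and contralateral knees came from the loaded mice. Since no label ties a library to its pool, all libraries were tested as independent, and p-values, which measure the spread between libraries, may be too small.

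Aggrecan is the large proteoglycan that gives cartilage its resistance to compression, and it is held in the matrix through hyaluronan and link protein. Aggrecanases cut its core protein between the globular domains near its start, which releases most of its glycosaminoglycan chains from the tissue. Adamts5 and Adamts4 are the members best known for this activity in cartilage, and loss of Adamts5 protects mouse joints in surgical models of osteoarthritis. Adamts1, Adamts9 and Adamts15 are known mainly as versicanases with roles in development, and Adamts8 is a less studied member with reported aggrecanase activity. All are made as inactive precursors that lose a prodomain to proprotein convertases, and their RNA level says nothing of their activity.

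The catalytic domain binds zinc through 3 histidines, and the codons of that site show how close the members are in the part they share. Each sequence below is coding sequence from the GENCODE transcript with the longest reading frame, 5′ to 3′. Capitals mark the 12 codons of the zinc-binding site and lower case marks 12 bases on each side.
Adamts1: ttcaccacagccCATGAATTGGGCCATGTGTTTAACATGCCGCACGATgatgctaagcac
Adamts4: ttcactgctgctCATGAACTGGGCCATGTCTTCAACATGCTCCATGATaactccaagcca
Adamts5: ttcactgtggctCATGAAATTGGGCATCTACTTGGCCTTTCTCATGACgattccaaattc
Adamts8: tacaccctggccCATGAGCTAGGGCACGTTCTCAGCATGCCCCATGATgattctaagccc
Adamts9: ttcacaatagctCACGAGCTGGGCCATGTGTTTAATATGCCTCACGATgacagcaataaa
Adamts15: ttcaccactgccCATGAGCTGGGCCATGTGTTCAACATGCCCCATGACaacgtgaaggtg

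Of the 36 bases in capitals, 16 were the same in all 6 members. Adamts5 was the most distant by this count. It shared between 20 and 23 of the 36 bases with each other member, and every pair without Adamts5 shared between 25 and 32. The pair with 32 was Adamts4 and Adamts15. In each gene these 60 bases cross an exon junction, and the coordinates below, in GRCm38, therefore span an intron. The site lies at chr16:85799176-85799557 on the minus strand in exons 3 and 4 of Adamts1, at chr1:171253198-171253930 on the plus strand in exons 3 and 4 of Adamts4, and at chr16:85878000-85887838 on the minus strand in exons 2 and 3 of Adamts5. It lies at chr9:30952709-30953393 on the plus strand in exons 3 and 4 of Adamts8, at chr6:92905270-92908505 on the minus strand in exons 8 and 9 of Adamts9, and at chr9:30911240-30911702 on the minus strand in exons 2 and 3 of Adamts15.

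The members form 2 pairs of neighbours in the genome. Adamts1 (ENSMUSG00000022893, chr16:85793827-85803113) and Adamts5 (ENSMUSG00000022894, chr16:85856173-85901828) lie 53059 bp apart on the minus strand. Adamts15 (ENSMUSG00000033453, chr9:30899155-30922452, minus strand) and Adamts8 (ENSMUSG00000031994, chr9:30942562-30963838, plus strand) lie head to head, 20109 bp apart. Adamts4 (ENSMUSG00000006403, chr1:171250421-171260637, plus strand) and Adamts9 (ENSMUSG00000030022, chr6:92772699-92943492, minus strand) stand alone. The members are distinct enough to be counted apart, since only 1 of their stretches of 31 bases occurred in more than 1 member. Adamts4, Adamts8 and Adamts9 overlap genes on the opposite strand. Stretches shared with other genes, on either strand, made up 3.31% of those of Adamts4, 9.41% of Adamts8 and 11.5% of Adamts9, and at most 0.126% of those of Adamts1, Adamts5 and Adamts15.

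Library totals ranged from 16074762 to 41794005 estimated counts. The labels give the tissue as cartilage and the cell type as chondrocyte. Col2a1, the main collagen of cartilage, was the most abundant of 15 chondrocyte markers, and their summed level was 5052 to 15540 CPM, the counts scaled to library size by TMM. Markers of other cells were present in every library. The summed level was 13740 to 112900 CPM for 13 fibroblast and synovial markers and 16660 to 64490 CPM for 7 erythroid markers. Day 7 contralateral replicate 1 stood apart. Its 10 most abundant genes held 42.5% of the counts, against at most 29.8% in the other 17 libraries, and its fibroblast, chondrocyte and erythroid sums were the highest of its group. Log2 fold changes of the members against this group are given with and without that library. Another 3 libraries shared a pattern of their own. Naïve replicate 5, day 1 injured replicate 2 and day 1 contralateral replicate 3 had 94.0, 87.6 and 93.7 CPM of Timp1, 2.03, 3.21 and 2.57 CPM of Il6 and 27.2, 29.3 and 23.7 CPM of Mmp3, far above the other libraries of their groups. They also had the highest Adamts1 of their groups. What sets them apart was not tested, and results were computed without all 3 as well, an alternative chosen after the data were seen.

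Measured per transcript length, as TPM, which compares genes within a library, Adamts1, Adamts5 and Adamts9 were the abundant members of naïve cartilage. Their median levels in the 6 naïve libraries were 3.86, 3.06 and 2.57 TPM. Adamts5 was above Adamts9 in 6 of 6 naïve libraries, but Adamts1 was above Adamts5 in only 3 of 6, so that the order of these genes at the top did not hold beyond the spread. Adamts4 had a median of 0.649 TPM and Adamts15 of 0.591 TPM, and each was above the other in 3 of the 6. Adamts8 was the lowest at 0.306 TPM, below Adamts15 in 6 of 6. In day 7 injured knees the order was different. Adamts1 led with a median of 6.04 TPM, followed by Adamts9 with 3.19, Adamts4 with 2.89, Adamts5 with 2.83, Adamts15 with 1.68 and Adamts8 with 0.223. Adamts9 was above Adamts4 in only 2 of these 3 libraries. Adamts4 was then above Adamts5 in 3 of 3 libraries, where it had been far below Adamts5 in naïve knees.

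Adamts4, Adamts15, Adamts1 and Adamts9 were higher in day 7 injured than in naïve cartilage, and Adamts5 and Adamts8 were not called. A gene counted as called when the quasi-likelihood test of edgeR gave a false discovery rate (FDR, adjusted over all genes tested) no higher than 0.05 and the change reached 1.5-fold. The 4 called members of 6 stand beside 16.6% of all 21129 genes tested that were called in this comparison, and beside 10.4% called as higher. The median log2 fold change was 0.93 over the 6 members and -0.04 over all genes.

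**Figure D1:**
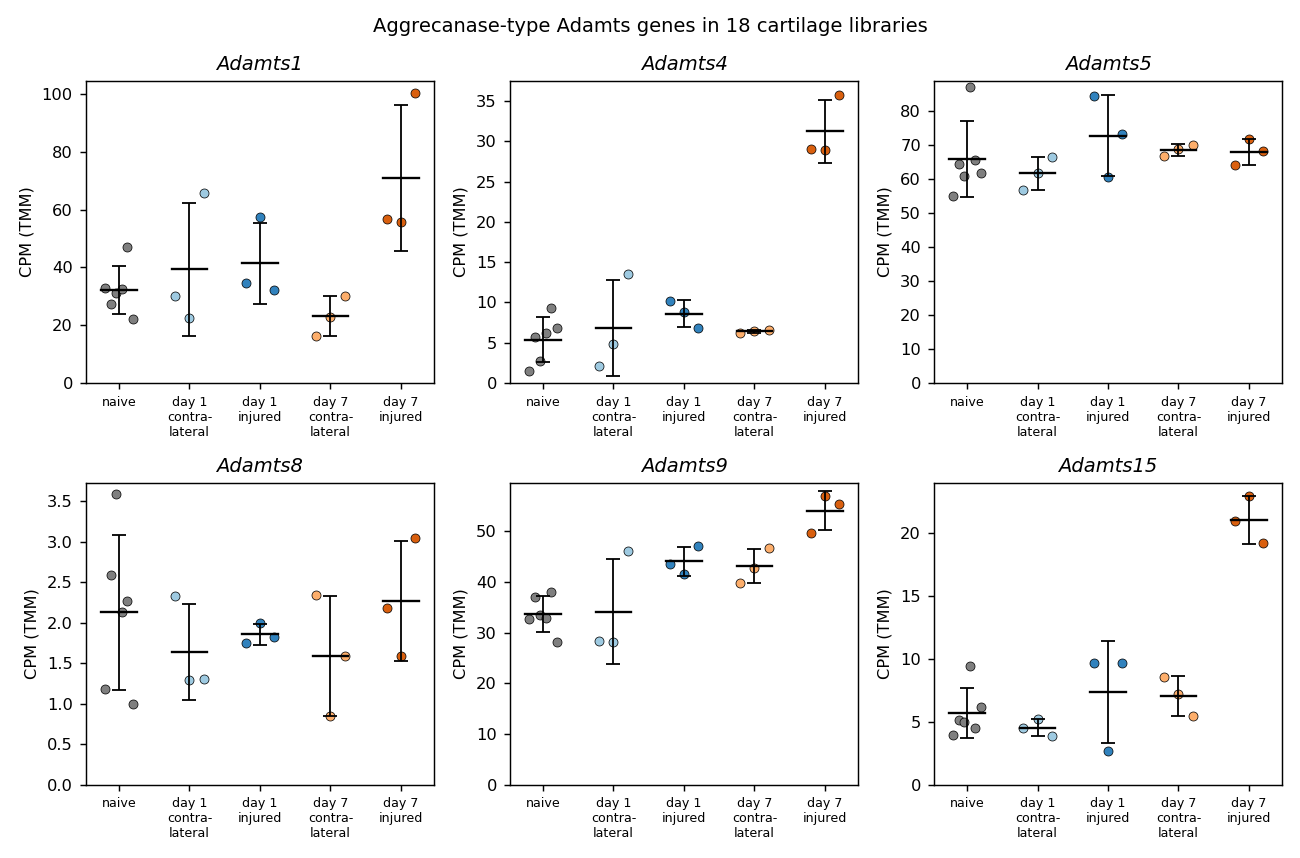
Level of each member in CPM (vertical axis, linear, from 0) in the 18 libraries by group. Points are libraries, bars are group means and whiskers are the SD. The 3 day 7 injured libraries lie above every naïve library for Adamts1, Adamts4, Adamts9 and Adamts15, as they do for 17.4% of all genes tested. The groups of Adamts5 and Adamts8 overlap.

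Adamts4 had the largest change. In naïve knees it ranged from 1.48 to 9.30 CPM with a median of 5.99, from 30 to 234 counts. In day 7 injured knees it was 29.0, 28.9 and 35.8 CPM. The lowest injured library was thus above 3 times the highest naïve one, and the fitted change was 5.85-fold (log2 2.55, standard error 0.47, FDR 0.000775). Adamts15 ranged from 3.95 to 9.41 CPM in naïve knees, with a median of 5.09. It was 20.9, 23.0 and 19.2 CPM in day 7 injured knees. The groups did not overlap, and the change was 3.71-fold (log2 1.89, standard error 0.31, FDR 0.000280).

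Adamts1, a versican-cleaving enzyme known to be induced in inflammation, ranged from 22.1 to 47.1 CPM in naïve knees with a median of 31.9. It was 56.8, 55.9 and 100.3 CPM in day 7 injured knees. All 3 lay above the naïve range, but 1 library was far above the other two. The change was 2.23-fold (log2 1.16, standard error 0.31, FDR 0.0109), and without day 7 injured replicate 3 it was log2 0.83 with an FDR of 0.102, which is no longer called. Without the 3 libraries high in Timp1, Il6 and Mmp3, of which 1 is naïve, it was log2 1.28 with an FDR of 0.000190, and the same 4 members were called. Adamts9, which cleaves versican and is one of the largest and most conserved members of the family, ranged from 28.2 to 38.0 CPM in naïve knees with a median of 33.2. It was 49.7, 57.0 and 55.4 CPM in day 7 injured knees. The change was the smallest of the 4, 1.62-fold (log2 0.70, standard error 0.14, FDR 0.00135), and it fell to log2 0.38 (FDR 0.0304), under the fold limit, when libraries were scaled by their totals without TMM. That scaling was tried after the data were seen. It moved the median of all genes to -0.35, against which Adamts9 stood at 0.73, close to the 0.74 it had with TMM.

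Adamts5 was level. It ranged from 55.0 to 87.1 CPM in naïve knees with a median of 63.0, and was 63.9, 71.6 and 68.3 CPM in day 7 injured knees, inside the naïve range. The log2 fold change was 0.06 (standard error 0.13, FDR 0.734), with a 95% interval from -0.21 to 0.34. With library totals in place of TMM it was -0.25 (FDR 0.0982), or 0.10 above the median of all genes. Adamts8 ranged from 1.00 to 3.59 CPM in naïve knees with a median of 2.20, and was 2.18, 1.58 and 3.05 CPM in day 7 injured knees. Its log2 fold change was 0.12 (standard error 0.35, FDR 0.815), with an interval from -0.62 to 0.86. Over all 18 libraries, between 19 and 104 counts stood behind each of its values. A change within the interval could not be told from no change.

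In all 3 day 7 injured libraries, 4 of the 6 members were above every naïve library, which held for 17.4% of all genes tested. These are bulk libraries, in which a change in the number of cells of a type and a change in RNA per cell cannot be told apart.

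Compared with the contralateral knees of day 7, the injured knees had higher Adamts4, Adamts1 and Adamts15. The 3 called members stand beside 12.6% of 21262 genes called and 9.33% called as higher. The day 7 contralateral libraries had 6.23, 6.50 and 6.52 CPM of Adamts4, and the fitted change was log2 2.28 (standard error 0.55, FDR 0.00713). Adamts1 was 16.4, 22.9 and 30.3 CPM in these contralateral libraries, with a change of log2 1.61 (standard error 0.37, FDR 0.00536). Adamts15 was 8.57, 7.17 and 5.44 CPM, with a change of log2 1.59 (standard error 0.37, FDR 0.00553). Without day 7 contralateral replicate 1 the changes were log2 2.28 for Adamts4 (FDR 0.0225), 1.44 for Adamts1 (FDR 0.0261) and 1.76 for Adamts15 (FDR 0.00826), and the 3 members also stayed called without any other library of these groups. Adamts9 was 39.9, 42.8 and 46.6 CPM in the contralateral libraries. All lay below the 3 injured libraries, but its log2 fold change of 0.32 (standard error 0.16) had an FDR of 0.168. In 4 of the 6 members every injured library was above every contralateral one, as in 18.6% of all genes. Adamts5 (66.6, 68.7 and 70.0 CPM in contralateral knees) had a log2 fold change of -0.01 with an interval from -0.31 to 0.29, and Adamts8 (2.34, 0.846 and 1.59 CPM) had 0.57 with an interval from -0.36 to 1.49. Without day 7 contralateral replicate 1 these uncalled values were 0.29 for Adamts9, -0.0077 for Adamts5 and 0.91 for Adamts8, and that of Adamts8 ranged from 0.24 to 0.91 when each library of these groups was left out in turn.

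**Figure D2:**
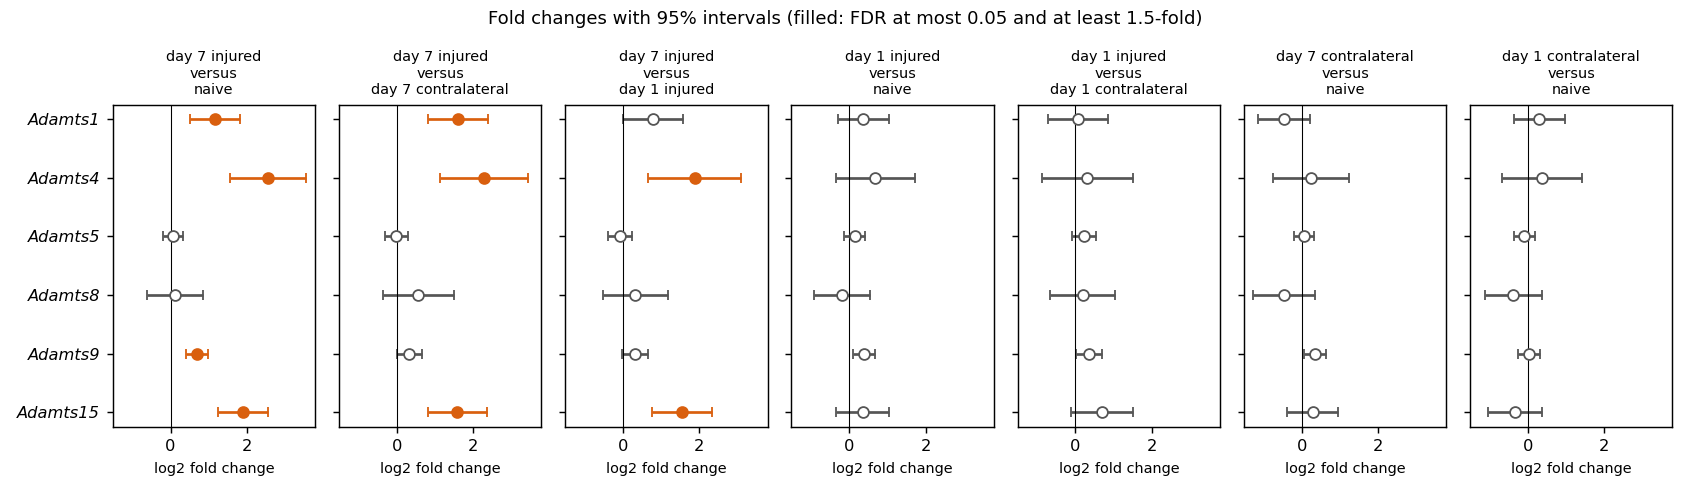
Log2 fold change of each member (horizontal axis) with its 95% interval in 7 comparisons of groups. Filled points passed an FDR of 0.05 and 1.5-fold, which are 4, 3 and 2 members in the first 3 panels and none in the other 4.

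Between day 1 and day 7 in injured knees, Adamts4 and Adamts15 were higher at day 7. These 2 members stand beside 15.4% of 21129 genes called and 9.04% called as higher. Adamts4 was 10.2, 8.80 and 6.87 CPM in day 1 injured knees, and its change to day 7 was log2 1.87 (standard error 0.57, FDR 0.0262). It lost the call when any 1 of 5 libraries of these groups was left out, with log2 values from 1.73 to 2.0 and FDRs from 0.0518 to 0.0859. Adamts15 was 9.65, 2.67 and 9.69 CPM in day 1 injured knees, of which replicate 2 was low. Its change was log2 1.54 (standard error 0.37, FDR 0.00783). Adamts1 was 34.6, 57.6 and 32.3 CPM at day 1, and the day 1 and day 7 libraries overlapped. Its log2 fold change of 0.79 had an FDR of 0.128, and was 0.46 (FDR 0.433) without day 7 injured replicate 3. Without the libraries high in Timp1, Il6 and Mmp3, which include the day 1 library with the most Adamts1, it was 1.08 and passed the test (FDR 0.00818). Adamts9 was 43.5, 41.6 and 47.0 CPM at day 1, below all day 7 libraries, with a log2 fold change of 0.31 and an FDR of 0.168. Every day 7 library was above every day 1 library in Adamts4, Adamts9 and Adamts15, that is in 3 of 6 members, and in 22.9% of all genes. Adamts5 was 84.3, 60.5 and 73.2 CPM at day 1, a log2 fold change of -0.08. With library totals in place of TMM, Adamts5 changed by -0.52 (FDR 0.00653), under the fold limit, where the median of all genes was -0.45. Adamts8 was 1.74, 2.0 and 1.82 CPM.

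No member was called in the 2 comparisons of day 1 injured knees, nor between contralateral and naïve knees. In each of these 4 comparisons 0% of all genes were called by edgeR, while between 554 and 3220 genes had an unadjusted p under 0.05. limma-voom called 0 genes in each and DESeq2 at most 15, none of them a member. In 3 of them 1 member had an unadjusted p under 0.05, and it was Adamts9 every time. Of all genes tested, 959 of 21129 did so for day 1 injured against naïve knees and 1383 of 21129 against day 1 contralateral knees. For day 7 contralateral against naïve knees it was 3220 of 21262. With so many genes at that level, 1 member does not set the members apart from other genes, least of all in the last comparison. Day 1 injured knees had all 3 Adamts9 values above the highest naïve value of 38.0 CPM (log2 fold change 0.39, standard error 0.14, FDR 0.987), a separation that 1.07% of all genes had. Against day 1 contralateral knees, where Adamts9 was 28.4, 28.1 and 46.0 CPM, it changed by log2 0.36 (standard error 0.16, FDR 0.755) and the groups overlapped. This value ranged from 0.24 to 0.64 with 1 library left out. It was 0.69 (FDR 0.234) without the 3 libraries high in Timp1, Il6 and Mmp3. In day 7 contralateral knees Adamts9 also lay above all naïve knees (log2 fold change 0.36, standard error 0.13, FDR 0.260), a separation found in 1.93% of all genes, and without replicate 1 of that group the value was 0.41 (FDR 0.879). Adamts9 was thus above the naïve range in all 3 day 1 injured, day 7 contralateral and day 7 injured libraries, although only the last difference passed the test, and all these comparisons share the naïve libraries.

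Day 1 contralateral replicate 3, the deepest library and one of the 3 high in Timp1, Il6 and Mmp3, decided much of what the day 1 contralateral group showed. It had 65.7 CPM of Adamts1, where the other two had 30.0 and 22.6, and 13.5 CPM of Adamts4, where they had 2.15 and 4.78. Without it the log2 fold change of day 1 contralateral against naïve knees went from 0.30 to -0.30 for Adamts1 and from 0.36 to -0.64 for Adamts4. The same library held the highest Adamts9 value of its group. Adamts5 was 56.6, 61.6 and 66.4 CPM, Adamts8 was 2.32, 1.29 and 1.31 CPM and Adamts15 was 4.54, 5.18 and 3.85 CPM in day 1 contralateral knees.

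Whether injury acted differently at day 7 and day 1 was tested as the difference between the 2 injured against contralateral changes. None of the 6 members was called, beside 3.77% of 21262 genes. The difference was log2 1.54 for Adamts1 (standard error 0.52, FDR 0.118) and log2 1.96 for Adamts4 (standard error 0.75, FDR 0.183), both under 0.05 before adjustment. DESeq2 called Adamts1 (log2 1.53, FDR 0.0431) and limma-voom called none. Without day 7 contralateral replicate 1 the values were 1.37 for Adamts1 and 1.97 for Adamts4. Without day 1 contralateral replicate 3 they fell to 0.94 and 0.95 (FDR 0.381 and 0.589), so that this 1 library decided much of their size. The difference was log2 0.89 for Adamts15 (FDR 0.425), or 0.49 without day 1 injured replicate 2, and -0.04 for Adamts9 (FDR 0.956). Without day 7 contralateral replicate 1 these were 1.07 and -0.06. A greater change of Adamts1, Adamts4 and Adamts15 at day 7 than at day 1 was therefore not established by this test.

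The make-up of aggrecanase-type RNA differed in day 7 injured knees, which can be read within a library and needs no scaling between libraries. Adamts5 held 22.8% to 33.9% of the summed TPM of the 6 genes in naïve libraries, with a median of 28.5%. In day 7 injured libraries it held 12.5% to 16.8%, below every other library of the study. Adamts4 held 1.79% to 8.85% in naïve libraries and 16.5% to 17.9% in day 7 injured ones, above the highest value elsewhere of 9.92%. Adamts9 went from a range of 20.2% to 25.99% to one of 14.95% to 19.1%. The share of Adamts1 overlapped, with 27.5% to 41.5% in naïve and 31.7% to 47.8% in day 7 injured libraries. These shares follow from the same counts as the tests above and were not tested apart from them.

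**Figure D3:**
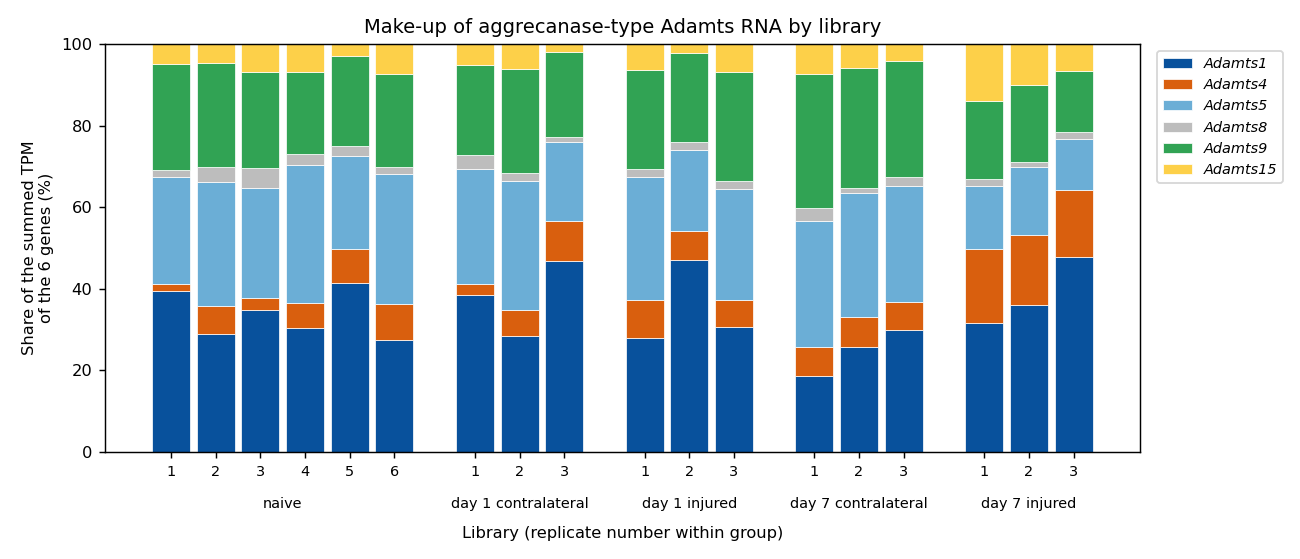
Share of the summed TPM of the 6 members (vertical axis, percent) held by each in the 18 libraries, which are grouped by treatment and numbered within group. The Adamts4 band is widest in the 3 day 7 injured libraries, at 16.5% to 17.9%, and the Adamts5 band is narrowest there, at 12.5% to 16.8%.

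Neighbouring members did not move alike. The ratio of Adamts1 to Adamts5 counts was 0.358 to 0.718 in naïve libraries and 0.780 to 1.47 in day 7 injured libraries. The ratio of Adamts15 to Adamts8 counts was 1.39 to 6.18 in naïve libraries and 6.30 to 14.5 in day 7 injured libraries. In both pairs the day 7 injured libraries lay above all naïve ones. They overlapped the day 1 libraries in the first pair, which reached 0.988, and the day 7 contralateral libraries in the second, which reached 8.47. The ratios were computed after the levels were seen and were not tested.

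Adamts1 and Adamts9 had enough transcripts to compare their use, as the members with at least 2 transcripts above a mean of 0.1 TPM. Adamts1-201 held 82.2% ± 13.9 (SD, n = 3) of the TPM of Adamts1 in day 7 injured and 87.7% ± 7.52 (SD, n = 6) in naïve libraries, a difference well inside the spread (exact permutation test, two-sided, p = 0.476, adjusted p = 0.476 over the 2 genes). Adamts9-201, the transcript with 40 exons, held 86.7% ± 4.24 (SD, n = 3) in day 7 injured and 77.8% ± 5.60 (SD, n = 6) in naïve libraries (exact permutation test, two-sided, p = 0.0714, adjusted p = 0.143). These are shares of the 5 Adamts9 transcripts above that mean level, not of the whole gene. The coding transcript Adamts9-205 was left out, at up to 0.41 TPM in day 7 injured and 0.242 TPM in naïve libraries. Shares with it included were not computed and would be lower in any library that held it. The 84 arrangements of these libraries could have given an adjusted p under 0.05. By the same test, the adjusted p for Adamts9-201 was 0.0357 without naïve replicate 2. It was between 0.107 and 0.286 when any other of these libraries was left out. These p-values take the naïve libraries as independent, although they share mice.

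Promoter sequences were at hand for 2 members, both higher at day 7, and are printed to show that they differ in the elements near the start site. They are the 250 bases before the RefSeq start site in GRCm38.p6, 5′ to 3′ on the minus strand. Capitals mark the matches on either strand to GGGCGG, the motif of SP factors, and to TATAAA, the box that positions the start of transcription.
Adamts1, chr16:85803114-85803363: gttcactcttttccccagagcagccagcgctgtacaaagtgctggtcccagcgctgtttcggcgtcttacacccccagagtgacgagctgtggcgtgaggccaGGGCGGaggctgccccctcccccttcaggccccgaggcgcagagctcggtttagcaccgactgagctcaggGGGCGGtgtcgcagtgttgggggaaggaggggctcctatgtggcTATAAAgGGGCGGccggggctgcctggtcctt
Adamts9, chr6:92943535-92943784: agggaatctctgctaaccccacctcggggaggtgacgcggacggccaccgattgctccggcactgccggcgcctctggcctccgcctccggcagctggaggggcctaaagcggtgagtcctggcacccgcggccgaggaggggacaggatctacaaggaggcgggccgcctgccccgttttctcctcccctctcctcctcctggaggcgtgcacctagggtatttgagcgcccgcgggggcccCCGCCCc

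Adamts1 had a TATAAA that began 32 bases before the start site and 3 matches to GGGCGG, which began 147, 76 and 25 bases before it. Adamts9 had 1 match to GGGCGG on the other strand and no TATAAA. Of 32851 RefSeq promoter windows of 300 bases (250 before and 50 after the start site), 13.6% held TATAAA on either strand and 35.7% held GGGCGG. Neither of the 2 windows held TGANTCA (N for any base; AP-1, in 7.81% of windows), TGTGGT (RUNX, in 16.8%) or TGACGTCA (CRE, in 1.79%). None of these motifs overlapped another in the printed sequences. A match is a description of letters and says nothing of binding.

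Aggrecan and versican, the substrates of these enzymes, were higher as well. Of 8 hyalectans and link proteins, 7 were tested and 4 were called higher in day 7 injured against naïve knees. Acan, which encodes aggrecan, went from 249 to 587 CPM in naïve knees to 949, 1064 and 1250 CPM (log2 fold change 1.57, standard error 0.20, FDR 3.31e-05). Vcan, which encodes versican, went from 50.7 to 197 CPM to 310, 411 and 514 CPM (log2 2.07, FDR 0.00195). The other called genes were Hapln4 (log2 1.82) and Bcan (log2 1.49), link protein and proteoglycan genes known from brain, at levels of at most 3.42 CPM. Hapln1, which encodes the link protein of cartilage, had a log2 fold change of 0.38 and an FDR of 0.112. Acan was also called for the difference between the injury changes at day 7 and day 1 (log2 1.31, FDR 0.0463), a call lost without the 3 libraries high in Timp1, Il6 and Mmp3 (log2 1.18, FDR 0.196). Against day 7 contralateral knees 3 of the 7 were called higher, Acan (log2 1.60) and Vcan (log2 2.85) among them. Hapln4 (log2 1.10, FDR 0.0719) and Bcan (log2 0.84, FDR 0.342) were not called there.

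Of the inhibitors, Timp2 and Reck were called higher and none lower among 5. Timp2 was 815, 879 and 1271 CPM against 169 to 302 CPM in naïve knees (log2 2.09, FDR 1.20e-06), and Reck, a membrane-anchored inhibitor, had a log2 fold change of 0.70 (FDR 0.000527). Timp3, which is known as the chief inhibitor of aggrecanases, was 201, 248 and 267 CPM against 195 to 325 CPM. Its log2 fold change was -0.09 and its FDR 0.674. Timp1 was 59.0, 59.3 and 83.3 CPM against 5.92 to 94.0 CPM in naïve knees, where replicate 5 alone had the highest value, and was not called (FDR 0.250). Timp4 had a log2 fold change of -1.27 with an FDR of 0.0751.

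Among the activators and clearance partners, 1 of 4 proprotein convertases and 5 of 8 tested partners were called higher. Pcsk5 was called (log2 1.28, FDR 0.0247), Furin had a log2 fold change of 0.50 that passed the FDR (0.0109) but not the fold limit, and Pcsk6 had 0.03. Lrp1, the endocytic receptor that takes up Adamts4 and Adamts5, was 1649, 1777 and 1941 CPM against 652 to 1238 CPM (log2 1.00, FDR 0.00226). The syndecans Sdc1 (log2 1.84), Sdc2 (log2 1.42) and Sdc4 (log2 0.97, FDR 8.07e-05) were called, of which Sdc4 is known as a partner of Adamts5 in cartilage. Against day 7 contralateral knees Sdc4 overlapped and was not called (log2 0.62, FDR 0.0914). Fn1, which encodes fibronectin, was called with a log2 fold change of 1.63.

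Of 11 tested regulators named for aggrecanase genes, 4 were called higher and none lower. Runx1 had a log2 fold change of 0.93 (FDR 0.000260), Sox4 of 0.93 (FDR 1.72e-05), Sox11 of 1.44 (FDR 0.000344) and Jun of 0.87. Against day 7 contralateral knees Sox4 fell short of the fold limit (log2 0.50, FDR 0.0308). Runx2 had a log2 fold change of 0.00. Of 8 tested cytokines and growth factors known to induce aggrecanases, only Inhba, a subunit of activin, was called (log2 1.54, FDR 0.0168). Il1a (log2 -0.57, FDR 0.0294) and Osm (log2 -0.56, FDR 0.0174) passed the FDR as lower but not the fold limit. Il1b had a log2 fold change of 0.16 (FDR 0.688), Tnf of -0.23 (FDR 0.301) and Il6 of 0.02 (FDR 0.988), the last at no more than 2.03 CPM in naïve knees. The median of this list was -0.02, beside -0.04 for all genes. In the comparison with day 7 contralateral knees, 1 of the 8 was called higher and 1 lower. Between day 7 and day 1 injured knees none was called higher and 1 was called lower.

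The rest of the family and other aggrecan-cleaving proteinases included more called genes. Of 12 tested other Adamts genes, 8 were called higher and none lower, with a list median of 1.40. Adamts16 had the largest change (log2 3.97), followed by Adamts12 (log2 2.30), which was 74.6, 92.5 and 109 CPM against 15.9 to 23.6 CPM, Adamts17 (log2 1.55) and Adamts7 (log2 1.5). Adamts7 and Adamts12 are known to cleave cartilage oligomeric matrix protein. The procollagen proteinases Adamts2 (log2 1.32) and Adamts14 (log2 1.47) were called as well. Of 11 other proteinases that cut aggrecan, 6 were called higher. Mmp2 (log2 3.29), Mmp14 (log2 2.82) and the serine protease Htra1 (log2 2.33) led. Capn2 had 0.89, Mmp13 had 0.88 (FDR 0.00774), and Mmp3 had 2.0 with an FDR of 0.0779. Mmp13 was 386, 502 and 497 CPM in day 7 contralateral knees, which overlapped the 494, 513 and 496 CPM of the injured knees (log2 fold change 0.12, FDR 0.808). Mmp3 was 4.36, 2.36 and 4.15 CPM in those contralateral knees and was called against them (log2 3.21, FDR 0.0386).

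**Figure D4:**
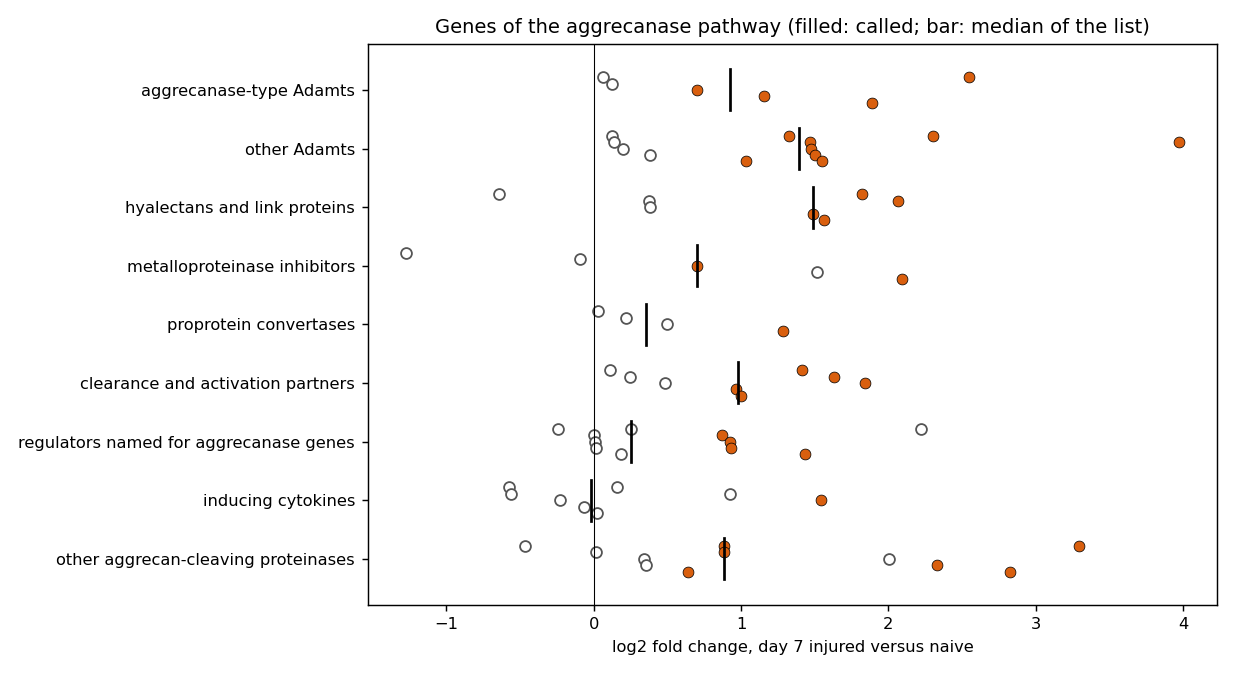
Log2 fold change of day 7 injured over naïve knees (horizontal axis) for the tested genes of 9 lists. Points are genes, filled where called, and vertical bars are list medians, which reach 1.49 for hyalectans and link proteins and lie at -0.02 for inducing cytokines.

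Markers of fibroblasts and of vessels were called higher in the comparison in which 4 members were, and those of several other cells were called lower or not at all. Of 13 fibroblast and synovial markers, 10 were called higher and none lower between day 7 injured and naïve knees, led by Lrrc15 (log2 5.16), Col3a1 (log2 3.65), Dpt (log2 2.35) and Col1a1 (log2 2.05), the most abundant of the list. Their summed level was 17740 to 28840 CPM in naïve libraries and 103000, 98490 and 112900 CPM in day 7 injured libraries. None of the 13 was at 0 in all libraries. Of 10 endothelial and mural markers, 6 were called higher, led by Mcam (log2 1.19). Vwf, the most abundant of the list, had a log2 fold change of -0.37 (FDR 0.0271), short of the fold limit, with every injured library below every naïve one. The summed level went from between 694 and 862 CPM to 1063, 1150 and 1264 CPM. Of 15 chondrocyte markers, 4 were called higher, Acan, Comp (log2 1.39), Sox9 (log2 1.36) and Col11a1 (log2 1.26), and Chad was called lower (log2 -0.73). Acan and Hapln1 stand in this list and among the substrates, and Prg4, which encodes lubricin, stands in both this list and the fibroblast and synovial list.

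The part of these cells in the change of the members was not tested. The high fibroblast sum of day 7 contralateral replicate 1, 84280 CPM, was mostly Col1a1 (52400 CPM) and Col1a2 (27100 CPM). Of the other 11 markers, Col3a1 (3729 CPM), Pi16 (64.3 CPM) and Pdgfrb (100.4 CPM) were above their naïve ranges in it, and the other 8, Lrrc15 (1.95 CPM) and Dcn (394 CPM) among them, were in or below theirs. No macrophage marker of 8 reached the fold limit between day 7 injured and naïve knees. By the FDR alone, Adgre1 (log2 0.46), Csf1r (log2 0.31) and C1qb (log2 0.58) were higher there and Cd163 was lower (log2 -0.50, FDR 0.00164). Of these 8 markers, 1 was called lower against day 7 contralateral knees. Between day 7 and day 1 injured knees 2 were called higher. Compared with naïve knees, Ctsk was called higher among 6 osteoclast markers (log2 1.25). Against day 7 contralateral knees none of the 6 was called, Ctsk had a log2 fold change of 0.51 (FDR 0.0608), and the list median was -0.15, with 1 of 6 above 0. Of 9 osteoblast and osteocyte markers, Ibsp was called higher (log2 0.69) and Sost (log2 -0.95) and Mepe (log2 -0.61) lower. Among marrow and other tissue markers the calls were lower. They were 4 of 7 erythroid markers, led by Alas2 (log2 -0.73), 2 of 8 neutrophil markers, S100a8 (log2 -0.67) and S100a9 (log2 -0.63), 4 of 7 adipocyte markers, led by Lep (log2 -1.85), and 1 of 8 skeletal muscle markers, Myh2 (log2 -1.87). Of the markers named here and above as called, Col1a1 (log2 0.77, FDR 0.188), Chad (log2 -0.23, FDR 0.686), Ibsp (log2 0.47, FDR 0.0586), Mepe (log2 -0.07, FDR 0.909), S100a8 (log2 -0.50, FDR 0.379), S100a9 (log2 -0.79, FDR 0.0738) and Myh2 (log2 -0.97, FDR 0.358) were, like Ctsk, not called against day 7 contralateral knees. Other neutrophil markers were, since 3 of the 8 were called lower there. The median of the neutrophil list was -0.68 in that comparison and -0.37 against naïve knees.

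**Figure D5:**
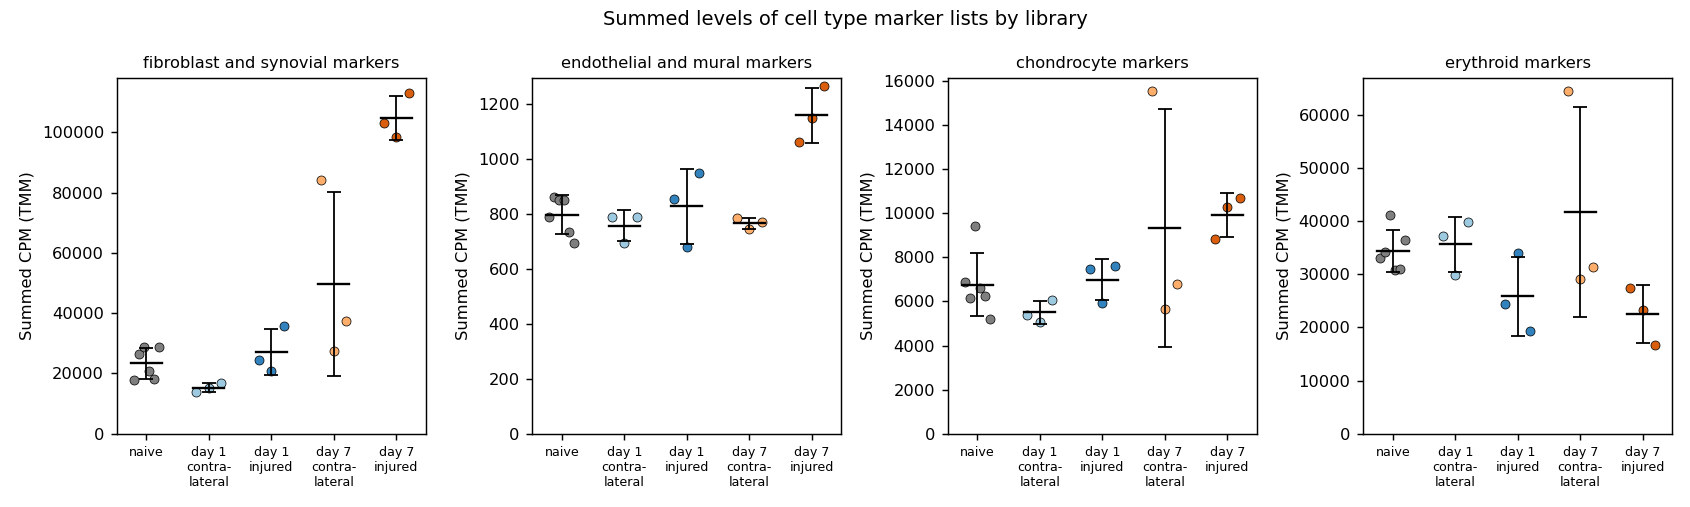
Summed level in CPM (vertical axes, linear, from 0) of 4 marker lists in the 18 libraries by group, with the mean and SD. The fibroblast sum lies between 98490 and 112900 CPM in day 7 injured libraries, and 1 day 7 contralateral library reaches 84280 CPM.

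The genes whose pattern was most like each member were found by the root mean square difference of centred log2 CPM over the 18 libraries, among 21261 other genes. Adamts1 was nearest to Ccbe1 (0.19), Osmr (0.23) and Atp8b1 (0.24), while its own SD over the libraries was 0.66. Adamts4, with an SD of 1.21, was nearest to the matrix genes Lox (0.44), Fbn1 (0.48) and Col5a3 (0.51). Adamts15, with an SD of 0.87, was nearest to Klhl13 (0.23), Calhm5 (0.28) and Htra3 (0.29). Adamts9, with an SD of 0.32, was nearest to Papss1 (0.15), 2810025M15Rik (0.15) and Map4k4 (0.16). Adamts5 varied least, with an SD of 0.17, and was nearest to Samd8 (0.10), Cyb5b (0.12) and Lnpep (0.12). Adamts8, with an SD of 0.53, was nearest to Tmem267 (0.34), Bhlhe41 (0.36) and Nr6a1 (0.37). No member was among the 3 nearest of another.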

How the data were processed

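The authors trimmed the reads with Trimmomatic, quantified them with Kallisto against the mouse GRCm38 transcriptome and deposited estimated counts, TPM and effective lengths per transcript. The submitters' processing notes name a human build, GRCh38, for these mouse libraries. The deposited identifiers are of mouse. The kit marked strand, and whether counting used it is not given in the sources used here. Transcripts were matched to GENCODE vM21 (135107 of 137436, 98.3%), and their deposited estimated counts were added up per gene, then rounded. Unmatched transcripts held 0.667% to 3.90% of a library. The test was edgeR 4.0.16 (R 4.3.3), with TMM, its filter on low counts, 1 mean per group and Benjamini-Hochberg adjustment over all genes. Comparisons without day 7 contralateral knees were fitted on 15 libraries and those with it on 18. A standard error is the log2 change divided by the square root of F. limma 3.58.1 and DESeq2 1.42.0, size factors, filters, fits, transcript lengths, coding transcripts, thresholds and each library left out were alternatives. The test was checked on simulated counts. The study fitted a correlation between knees of 1 pool and removed 1 library with few mapped reads. Neither the pools nor that library are named, so all libraries were used as independent.

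Members, lists and tests were chosen with earlier results of these data known. Genes named are the members, 27 pathway genes listed by name, up to 4 called genes of each list with the largest change between day 7 injured and naïve libraries, and the 3 genes most like each member. Il1a, Osm, Vwf, Col1a2, Dcn, Pi16, Pdgfrb, Prg4 and the macrophage markers were named after their values were seen. Adamts genes of other kinds count 13 in the list, and 1 erythroid marker of 8 matched no gene. Deposited TPM were used for levels within a library and transcript shares. Deposited effective lengths entered 1 alternative. Scaling by library totals without TMM, and leaving out 3 libraries together, were added after the data were seen.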

Additional observations from a re-analysis of the deposited data

Results flagged for a closer look

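In 7 of the 33 named genes, 1 of the 6 naïve libraries stood apart from the other naïve libraries by Dixon's test, where chance gives about 5% of such groups. One was a member. Adamts5 was 87.1 CPM in naïve replicate 4 and at most 65.6 CPM in the other naïve libraries. The other 6 concerned naïve replicate 5, which had the highest level of Timp1 (94.0 CPM, next 11.9), Vcan (197 CPM, next 105), Pcsk5 (31.5 CPM, next 13.8), Runx1 (138 CPM, next 109), Il6 (2.03 CPM, next 0.605) and Mmp3 (27.2 CPM, next 9.44). Day 1 injured replicate 2 and day 1 contralateral replicate 3, in groups too small for this test, were high in the same 6 genes, with 87.6 and 93.7 CPM of Timp1. Naïve replicate 5 had the highest naïve Adamts1, Adamts4 and Adamts9. Left out, it changed no call of a member.

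The injury change differed between day 7 and day 1 for 6 named genes, tested as a contrast in edgeR and adjusted over all genes. The difference was log2 1.69 for Adamts12 (FDR 0.00117), 1.05 for Adamts7 (FDR 0.0351), 1.31 for Acan (FDR 0.0463), 1.66 for Timp2 (FDR 0.00567), 1.18 for Runx1 (FDR 0.0122) and 1.76 for Htra1 (FDR 0.00176). All 6 kept an FDR under 0.05 without day 7 contralateral replicate 1. Without the 3 libraries high in Timp1, Il6 and Mmp3, Adamts7 (log2 0.80, FDR 0.182) and Acan (log2 1.18, FDR 0.196) lost it and the other 4 kept it. None of the 6 aggrecanase-type members was among them.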

How the results depend on the processing

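Under the alternatives tried, Adamts4 and Adamts15 were called in day 7 injured against naïve knees in 20 of 20, Adamts9 in 19 and Adamts1 in 18. The count of members called there was 4. It was 3 at an FDR of 0.01 (without Adamts1) and without TMM (without Adamts9), and 3 to 4 with 1 library left out. Against day 7 contralateral knees it was 3 under every alternative. Between day 7 and day 1 injured knees it fell from 2 to 1 at an FDR of 0.01 and ranged from 1 to 2 with 1 library left out, Adamts4 being the gene lost. It was 3 without the 3 libraries high in Timp1, Il6 and Mmp3, where Adamts1 was called. For the difference between the injury changes it was 1 with DESeq2. With 1 library left out, the share differed by 6.62 to 10.8 percentage points for Adamts9-201 and by -13.3 to -0.157 for Adamts1-201, where day 7 injured replicates 1 and 2 gave these ends.

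Signs turned only for changes that were not called. With library totals without TMM, which moved the calls in day 7 injured against naïve knees from 2207 higher and 1291 lower to 1268 higher and 4556 lower, the log2 fold change was -0.25 for Adamts5 and -0.18 for Adamts8. In the same setting it was -0.13 for Adamts8 and -0.14 for Adamts9 between day 7 and day 1 injured knees, and -0.0891 for Adamts5 between day 7 contralateral and naïve knees. Without those 3 libraries, it was -0.0138 for Adamts8 in day 1 injured against contralateral knees, and -0.15 for Adamts1, -0.41 for Adamts4 and -0.22 for Adamts9 in day 1 contralateral against naïve knees. With coding transcripts only, Adamts5 was -0.0562 and Adamts8 -0.24 in day 7 injured against naïve knees. With transcript length as an offset, Adamts5 was 0.0022 against day 7 contralateral knees. With 1 library left out, ranges that crossed 0 were -0.15 to 0.35 for Adamts8 in day 7 injured against naïve knees, -0.0429 to 0.0307 for Adamts5 against day 7 contralateral knees, -0.21 to 0.0255 for Adamts5 between day 7 and day 1 injured knees, and -0.34 to 0.0299 for Adamts8 in day 1 injured against naïve knees. For day 1 injured against contralateral knees they were -0.24 to 0.66 for Adamts1 and -0.10 to 1.32 for Adamts4. For day 1 contralateral against naïve knees they were -0.30 to 0.58 for Adamts1, -0.64 to 0.79 for Adamts4, -0.15 to 0.0061 for Adamts5 and -0.26 to 0.15 for Adamts9. For the difference between the injury changes the range was -0.33 to 0.0796 for Adamts9. The cause was not tested.

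No paired analysis was possible because the labels carry no numbers that pair libraries. Adamts8 rests on at most 104 counts in a library, and Adamts4 on as few as 30, which limits their precision.

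Counts of all genes called moved as well. In day 7 injured against naïve knees it was 3498, and 6291 with no fold limit or 5824 without TMM. Between day 7 and day 1 injured knees it was 3257, and 5160 with no fold limit, 2075 with coding transcripts, 1895 at an FDR of 0.01 and 6835 without TMM, of which 793 were higher, against 1910 with TMM. Against day 7 contralateral knees it was 2670 (1984 higher), and 2740 without TMM (1435 higher), 1980 (1701 higher) with only those groups fitted and 1803 (1552 higher) at an FDR of 0.01. For the difference between injury changes it was 802 (750 higher), and 346 without TMM (252 higher) and 344 at an FDR of 0.01. With 1 library left out it fell to as few as 402 for that difference, without day 7 injured replicate 3, as well as to 496 without day 1 injured replicate 1 and 465 without day 1 contralateral replicate 3.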
